A study of Mus musculus with 6 samples.

Results

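Respiratory complex I is covered here by the genes whose symbol starts with Nduf, compared between ovariectomized mice given 17β-estradiol (OVX + E2) and ovariectomized mice given a placebo pellet (OVX). A probe set, the group of short probes that together measure 1 transcript, was taken as a member when the platform annotation gave it exactly 1 gene symbol and that symbol starts with Nduf. This gave 88 of the 45101 probe sets of the array, for 44 of the 18194 genes with such a probe set. They were divided by role into 16 probe sets of 6 core subunits, 60 of 28 accessory subunits, 10 of 8 assembly factors (the Ndufaf genes) and 1 each of Ndufa4 and Ndufa4l2, which carry the name but are not counted as complex I subunits. A further 10 Nduf probe sets with several symbols were left out, which removed Ndufs6 and Ndufa11.

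Complex I is the entry point of the respiratory chain of mitochondria. It takes electrons from NADH through a flavin and a chain of iron-sulfur clusters to ubiquinone and pumps protons across the inner membrane, and the proton gradient drives ATP synthesis. The core subunits carry this chemistry, with those of the peripheral arm encoded in the nucleus and those of the membrane arm in mitochondrial DNA. Accessory subunits surround and stabilise the core, and assembly factors help to build the complex without being part of the finished enzyme. Slow and oxidative muscle fibres, which are frequent in soleus, are rich in mitochondria and in these proteins.

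Female C57BL/6 mice had been ovariectomized at 4 months of age, so both groups lacked ovaries. The OVX + E2 group (3 arrays) carried a 60-day pellet with 0.18 mg of 17β-estradiol and the OVX group (3 arrays) a placebo pellet. RNA was hybridised to 1 Affymetrix mouse genome array per sample. The sources used here do not say whether each array is a separate mouse, so the p-values reflect no more than the variation among these samples, part of which may be technical. Values are log2 expression in arbitrary units, and a brighter probe set does not mean a more abundant transcript. The study names the soleus muscle, whereas the sample labels name the left ventricle. With the brightest probe set of each gene, all 10 genes restricted to skeletal muscle that were checked, such as Tnni1 and Ryr1, lay among the 5% brightest probe sets on these arrays, and 0 of 10 genes restricted to heart, such as Myh6 and Nppa, did so. With the probe set of widest interquartile range 9 of 10 and 0 of 10 did.

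Genes of fast muscle fibres, read with the brightest probe set of each, differed widely between the arrays. Their mean deviation from the gene's own mean over the 6 arrays was 0.34, −0.16 and −1.40 (log2) in OVX + E2 replicates 1, 2 and 3, against 0.17, 0.28 and 0.78 in OVX replicates 1, 2 and 3. All 10 were lowest on OVX + E2 replicate 3 and highest on OVX replicate 3. All 10 slow-fibre genes were lowest on OVX replicate 3, with a mean deviation there of −0.27 as deposited and −0.31 after cyclic loess, a further normalization between arrays. Complex I results are therefore also given without both of these arrays.

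Most complex I probe sets had slightly lower values in OVX + E2 than in OVX. Of the 88 members 79 (89.8%, against 52.3% of all probe sets) were below 0 and 9 above, with a median log2 difference (OVX + E2 minus OVX) of −0.11, a range from −0.33 to 0.15, and a fold change at the median of 0.924. No member reached the unadjusted p of 0.001 that the study used, which 96 of all probe sets (0.213%) did. The smallest p of a member was 0.00219 and its Benjamini-Hochberg adjusted p over all probe sets, from limma, was 0.308. At an unadjusted p under 0.05, 35 members (39.8%) were lower in OVX + E2 and 0 were higher, where 9.43% of all probe sets were lower and 4.35% higher. Probe sets past this looser threshold are described as called. The 3 OVX + E2 arrays all lay below the 3 OVX arrays in 41 members (46.6%; 11.4% of all probe sets) and all above in 1 (9.76% of all probe sets).

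These shares were read against probe sets of like brightness, because the difference between the groups varied with brightness over the whole array. For each member, the 1000 non-member probe sets nearest in mean value over the 6 arrays were taken. The median difference of these neighbours was −0.14, taken at the median over members, whereas the median over all probe sets of the array was −0.0049. Of the members 46 lay below the median of their own neighbours and 42 above, and the median of member minus neighbours was −0.0023. Among the neighbours 84.0% were below 0 and 32.2% were lower at p under 0.05, against 89.8% and 39.8% of the members. The fitted standard error had a median of 0.052 over the members and of 0.069 over their neighbours.

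**Figure D1:**
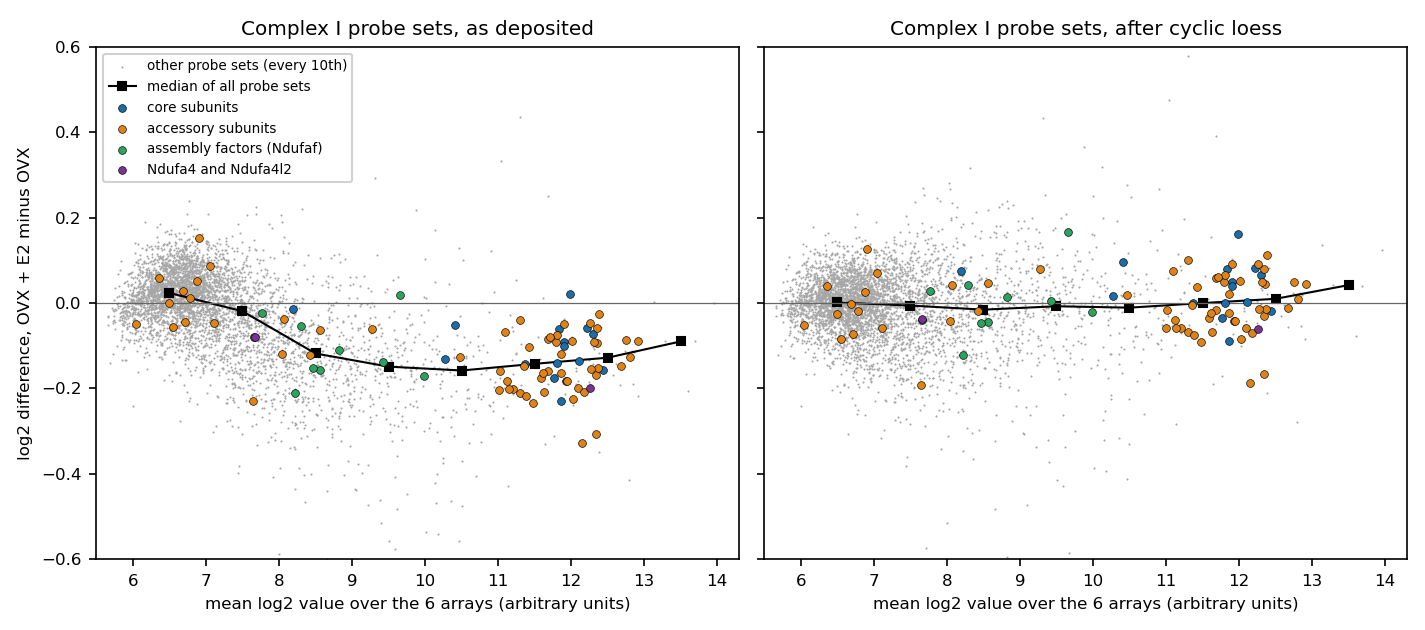
Log2 difference, OVX + E2 minus OVX (vertical axis), against mean log2 value (horizontal axis). A subset of the other probe sets is in grey and complex I members are coloured by role. The line gives the median of all probe sets in each bin of mean value. As deposited, the members run along the line, which lies at 0.02 between means of 6 and 7. Between 11 and 12, where 33 of the members lie, it is at −0.14.

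The direction followed brightness within the members too. Of the 59 members with a mean of 10 or more, 58 were below 0, and the median was −0.14, as it was in their neighbours (−0.14). Called lower were 31 of these members (52.5%), against 39.7% of their neighbours. Of the 18 with a mean from 7.5 to 10, 17 were below 0, 4 (22.2%) were called lower, against 26.1% of their neighbours, and the median was −0.10. Of the 11 members with a mean under 7.5, only 4 were below 0, 0 were called, and the median was 0.01. In 8 genes a member with a mean of 10 or more stood beside 1 or more under 7.5, and there 15 of 15 bright members and 4 of 10 dim members were below 0. Ndufb9, an accessory subunit at the tip of the membrane arm, had −0.09 in each of its 2 bright probe sets (means 12.9 and 12.8) and 0.09 in its dim one (mean 7.05). Ndufb8 had −0.13 in its bright probe set (mean 12.8) and 0.03 in its dim one (mean 6.68). In all, 22 genes had several members, and 8 of these had members on both sides of 0. Of these 8, only Ndufaf4 and Ndufv2 had no dim member.

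The core subunits had a median difference of −0.12, with 15 of 16 probe sets below 0, 5 lower at p under 0.05 and 0 higher. The 5 came from 4 genes, Ndufs3, Ndufs7, Ndufv1 and Ndufv2. The share called, 31.2%, was below that in probe sets of like brightness, 38.7%, and 6 probe sets lay below and 10 above the median of their neighbours. The median of core probe set minus neighbours was 0.03. Of the 16, 6 belong to Ndufs8. With 1 probe set per gene, that of widest interquartile range, the median relative to neighbours was −0.03. Then 4 of 6 genes were called, against 39.7% of probe sets of like brightness. That range was taken over the same 6 arrays, so the choice can favour probe sets with a larger group difference. The neighbours were not chosen in this way. The median difference was −0.17 with this choice and −0.14 with the brightest probe set of each gene.

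In the NADH-binding module, Ndufv1 carries the flavin that takes the electrons, and Ndufv2 and Ndufs1 carry iron-sulfur clusters that pass them on. Ndufv1 had 11.86, 11.94 and 11.71 in OVX + E2, against 12.01, 11.96 and 12.08 in OVX (difference −0.18, standard error 0.066, adjusted p = 0.33). The groups did not overlap, but OVX + E2 replicate 2 and OVX replicate 2 were close to each other. The other 2 probe sets of Ndufv1 had −0.06 each, and in both the groups overlapped. Ndufv2 had 12.39, 12.44 and 12.26 in OVX + E2, against 12.51, 12.50 and 12.55 in OVX (−0.16, standard error 0.053, adjusted p = 0.32), again without overlap. Its other 2 probe sets had −0.07 and 0.02, so the 3 differed in sign. Without OVX + E2 replicate 3, or without OVX replicate 3, neither leading probe set was called, with −0.12 and −0.15 for Ndufv1 and −0.11 and −0.14 for Ndufv2. Ndufs1 had 11.25, 11.45 and 11.20 in OVX + E2, against 11.43, 11.39 and 11.50 in OVX (−0.14, standard error 0.070, adjusted p = 0.404), and here OVX + E2 replicate 2 lay inside the OVX range. Without that array Ndufs1 had −0.22 and was called, whereas it had −0.09 without OVX + E2 replicate 3 and −0.06 without both arrays numbered 3, not called in either.

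In the module that reduces ubiquinone, Ndufs7 and Ndufs8 hold iron-sulfur clusters near the end of the electron path, and Ndufs3 is a structural core protein beside them. Ndufs3 had the most negative core difference. Its values were 11.70, 11.84 and 11.69 in OVX + E2, against 11.92, 11.90 and 12.11 in OVX (−0.23, standard error 0.071, adjusted p = 0.311, fold change 0.853). OVX replicate 3 was the highest, and without both arrays numbered 3 the difference was −0.13 and no longer called. It was not called without OVX + E2 replicate 1 either (−0.21). Ndufs7 had 11.66, 11.72 and 11.66 in OVX + E2, against 11.86, 11.80 and 11.92 in OVX (−0.18, standard error 0.046, adjusted p = 0.308), and its other probe set had −0.14 (adjusted p = 0.32). Ndufs7 was the core gene with several probe sets of which all were lower at p under 0.05. Ndufs8 had 11.84, 11.85 and 11.87 in OVX + E2, against 11.97, 12.01 and 11.87 in OVX (−0.10, standard error 0.046, adjusted p = 0.382). Its 6 probe sets ran from −0.14 to −0.01, all below 0 and none called. Without OVX replicate 3 the first of these had −0.14 and was called.

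The accessory subunits had a median difference of −0.11, with 53 of 60 probe sets below 0, 27 (45.0%) lower at p under 0.05 and 0 higher, where 31.3% of probe sets of like brightness were called lower. Of the 60, 33 lay below and 27 above the median of their neighbours. The Ndufa accessory subunits (22 probe sets, 11 genes) had 15 called lower (68.2%, against 34.6% at like brightness), a median of −0.17, and 16 below against 6 above their neighbours, with a median of −0.03 relative to them. The Ndufb subunits (21 probe sets, 11 genes), which belong to the membrane arm, had 7 called lower (33.3%, against 31.6%), a median of −0.08, and 7 below against 14 above their neighbours, 0.05 relative to them. Without both arrays numbered 3 the families were closer. Then 14 Ndufa probe sets (63.6%) and 10 Ndufb probe sets (47.6%) were called lower, against 7.54% of all probe sets. Their medians were −0.14 and −0.11. The 7.54% is not matched for brightness, and no share at like brightness was taken for this fit. The difference between the families was not tested. The 6 probe sets of Ndufs4, Ndufs5 and Ndufv3 were all below their neighbours, and 3 of them were called lower, against 28.6% of probe sets of like brightness. The 5 of Ndufab1, the acyl carrier protein of mitochondria, ran from −0.09 to 0.15 with 0 called.

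The accessory gene with the smallest p was Ndufa2, a subunit of the NADH-binding module, with 11.33, 11.27 and 11.20 in OVX + E2, against 11.51, 11.51 and 11.43 in OVX (−0.22, standard error 0.047, adjusted p = 0.308, fold change 0.860). Ndufv3, also of the NADH-binding module, had 11.99, 11.92 and 11.84 in OVX + E2, against 12.10, 12.18 and 12.15 in OVX (−0.23, standard error 0.049, adjusted p = 0.308). In both genes every OVX + E2 array lay below every OVX array by a margin similar to the spread inside a group. Ndufs5, which faces the intermembrane space, had 11.05, 11.07 and 10.97 in OVX + E2, against 11.21, 11.22 and 11.21 in OVX (−0.18, standard error 0.040, adjusted p = 0.308). Ndufc1, a small subunit of the membrane arm, had 12.20, 12.21 and 12.18 in OVX + E2, against 12.36, 12.35 and 12.33 in OVX (−0.15, standard error 0.035, adjusted p = 0.308). The 3 arrays of each group lay close together in Ndufc1, and Ndufs5 and Ndufc1 lay only 0.03 and 0.02 below their neighbours of like brightness.

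Ndufa7, in the peripheral arm, had 11.58, 11.57 and 11.44 in OVX + E2, against 11.74, 11.73 and 11.75 in OVX (−0.21, standard error 0.048, adjusted p = 0.308). Its 5 probe sets ran from −0.23 to −0.13, and 4 of them were called. Ndufa12, which takes the place of the assembly factor Ndufaf2 at the end of assembly, had 11.26, 11.21 and 11.11 in OVX + E2, against 11.38, 11.37 and 11.46 in OVX (−0.21, standard error 0.051, adjusted p = 0.308). Of its 4 probe sets the 3 bright ones were called lower, and the dim one (mean 6.49) had 0.00. The groups did not overlap in the leading probe set of any of these 6 accessory genes, which were picked for their small p. Over all 60 accessory probe sets, the OVX + E2 arrays lay below the OVX arrays without overlap in 30 (50%). At like brightness 32.6% of probe sets did so.

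The largest accessory differences were those of Ndufa3, a small membrane-arm subunit, and 1 array contributed most to them. Its leading probe set had 12.14, 12.13 and 11.68 in OVX + E2, against 12.32, 12.28 and 12.33 in OVX (−0.33, standard error 0.12, adjusted p = 0.331), which is 0.19 below its neighbours of like brightness. A second bright probe set had 12.34, 12.31 and 11.93 in OVX + E2, against 12.50, 12.47 and 12.52 in OVX (−0.31). OVX + E2 replicate 3, the array low in fast-fibre genes, was well below the other OVX + E2 arrays in both. Without both arrays numbered 3 the difference of the leading probe set was −0.17. The third, dim probe set of Ndufa3 was the member in which all OVX + E2 arrays lay above all OVX arrays (0.05, adjusted p = 0.542).

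Other accessory genes had bright probe sets with unlike differences over the 6 arrays. Ndufb7 had −0.20 (adjusted p = 0.308) in one bright probe set and −0.05 in another. Ndufb6 had −0.16 (adjusted p = 0.32) and −0.04. Ndufb11 had −0.20 (adjusted p = 0.308) in one and −0.06 and −0.09 in the other 2. Without both arrays numbered 3 these probe sets lay closer together. In the same order, Ndufb7 then had −0.24 and −0.22, Ndufb6 −0.10 in each, and Ndufb11 −0.14, −0.10 and −0.12. Ndufb5 was near 0 in both of its bright probe sets, with −0.05 and −0.03, which placed it 0.09 and 0.11 above its neighbours. Ndufa13, also known as GRIM-19, had −0.09, and Ndufb10 had −0.09, with overlapping groups in each.

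**Figure D2:**
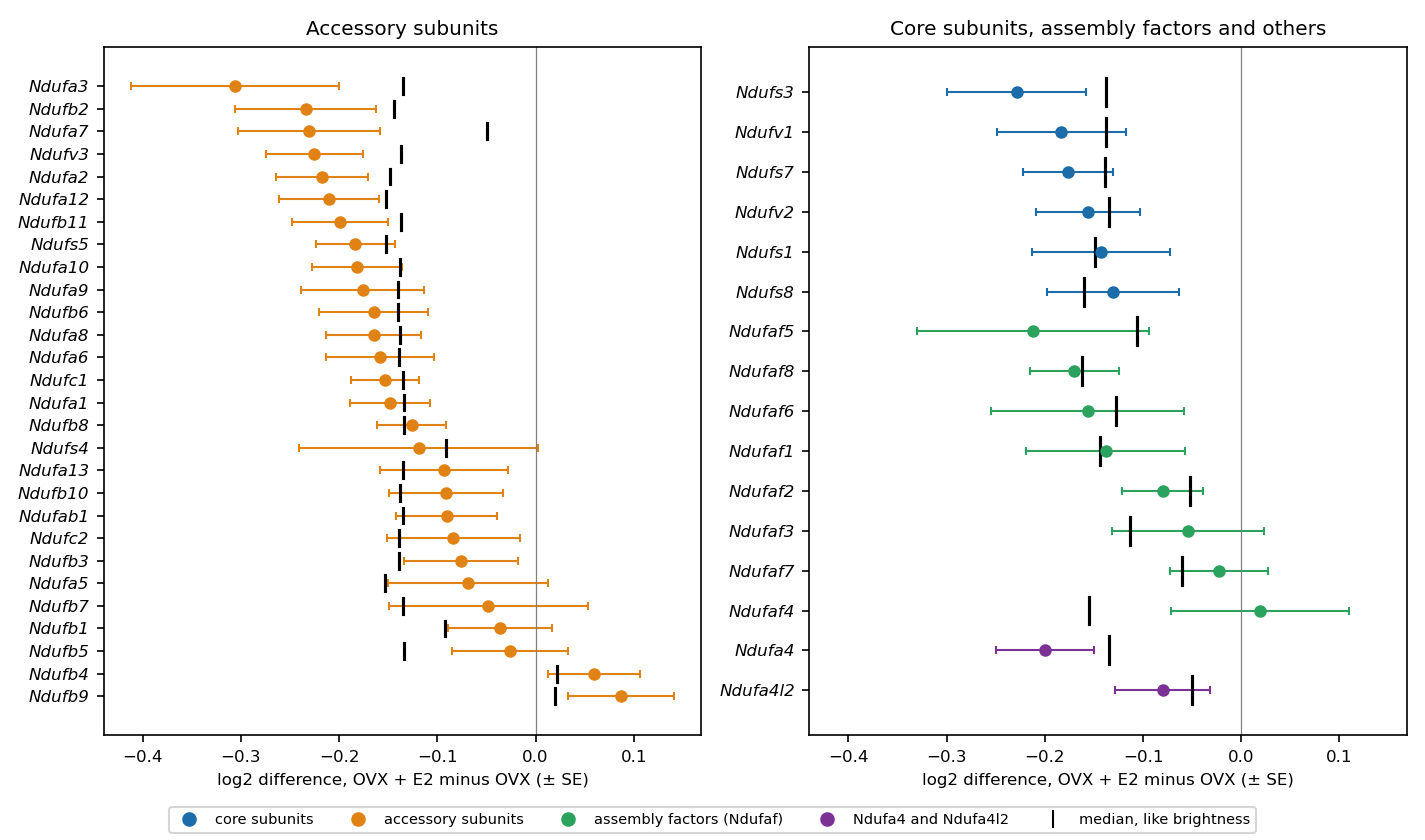
Log2 difference, OVX + E2 minus OVX, for 1 probe set per gene, that of widest interquartile range, ordered by role, with standard errors from limma as bars. Of the 44 genes 41 lie below 0 and 22 are lower at p under 0.05, and Ndufb9 and Ndufb4 stand above 0 with dim probe sets.

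Counted by gene, with the probe set of widest interquartile range, 41 of 44 genes (93.2%) were below 0 and 22 were called lower, with a median of −0.15. At like brightness 87.5% were below 0 and 33.6% called lower. With the brightest probe set of each gene 42 (95.5%) were below 0 and 20 (45.5%) called, with a median of −0.14, against 89.3% and 35.4% at like brightness. At least 1 probe set was called lower in 25 genes, and every probe set was in 12.

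The assembly factors had a median difference of −0.12, with 9 of 10 probe sets below 0 and 2 (20.0%) lower at p under 0.05, where 28.4% of probe sets of like brightness were. Both belong to Ndufaf8, and of the 10, 5 lay below and 5 above the median of their neighbours. Ndufaf8, which stabilises its partner Ndufaf5, had 9.91, 9.87 and 9.92 in OVX + E2, against 10.14, 10.07 and 10.0045 in OVX (−0.17, standard error 0.045, adjusted p = 0.308), and its other probe set had −0.15 (adjusted p = 0.312). The groups did not overlap in either probe set. Of the 10 assembly probe sets 3 (30%) lay lower without overlap, against 29.6% of probe sets of like brightness. Ndufaf5, which hydroxylates an arginine of Ndufs7, had 8.10, 8.25 and 8.0 in OVX + E2, against 8.25, 8.15 and 8.59 in OVX (−0.21, standard error 0.12, adjusted p = 0.446). OVX replicate 3 was well above the other arrays and the groups overlapped.

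Ndufaf2, a paralogue of Ndufa12, had 7.63, 7.66 and 7.58 in OVX + E2, against 7.74, 7.66 and 7.70 in OVX (−0.08, standard error 0.041, adjusted p = 0.42). Ndufaf4, which works with Ndufaf3 on the ubiquinone module, had 8.70, 8.85 and 8.75 in OVX + E2, against 8.97, 8.76 and 8.89 in OVX in 1 probe set (−0.11, standard error 0.065, adjusted p = 0.465). Its other probe set had 0.02, 0.17 above its neighbours, so the gene had no common direction. Both Ndufaf5 and the first Ndufaf4 probe set moved with single arrays. Ndufaf5 was called without OVX replicate 2 (−0.30) but had −0.08 without OVX replicate 3 and −0.02 without both arrays numbered 3. The Ndufaf4 probe set was called without OVX replicate 2 (−0.17) but had −0.06 without OVX replicate 1. Ndufaf1, Ndufaf3, Ndufaf6 and Ndufaf7 had −0.14, −0.05, −0.16 and −0.02, each with overlapping groups. Ndufa4, now counted with cytochrome c oxidase, had −0.20 (adjusted p = 0.308), and its paralogue Ndufa4l2 had −0.08 (adjusted p = 0.479).

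When the deposited values were normalised once more by cyclic loess, which removes differences between arrays that depend on brightness, the lower values of complex I were no longer seen. Of the 88 members 46 were below 0 (51.2% of all probe sets) and 42 above, with a median of −0.003. The median was 0.03 for core subunits, −0.015 for accessory subunits and −0.01 for assembly factors. Of the members 1 was lower at p under 0.05 (4.02% of all probe sets) and 0 higher (3.57%). The 1 was the least bright probe set of Ndufa7 (mean 7.64) with −0.19, a member below its neighbours as deposited too. Among the named genes, the difference after cyclic loess was −0.08 for Ndufa2, −0.09 for Ndufv3, −0.04 for Ndufs5 and −0.09 for Ndufs3, and none of these was called. Quantile normalization gave 40 members below 0 (47.0% of all probe sets) and 48 above, with a median of 0.01. There 1 member was lower (3.33% of all probe sets), the same Ndufa7 probe set, and 1 higher (4.46%), a probe set of Ndufs8 with 0.09. Both normalizations remove any change that all bright probe sets share, and a shared change in RNA cannot be told apart from a shared technical difference with these files.

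By array, the 58 subunit probe sets with a mean of 10 or more had a median deviation from their own means of −0.06, −0.04 and −0.11 in OVX + E2 replicates 1, 2 and 3, against 0.09, 0.08 and 0.05 in OVX replicates 1, 2 and 3. All 3 OVX + E2 medians lay below all 3 OVX medians. In the 10 assembly factor probe sets the medians overlapped, with −0.06, −0.01 and −0.08 in OVX + E2 replicates 1, 2 and 3, against 0.09, −0.05 and 0.06 in OVX replicates 1, 2 and 3. OVX + E2 replicate 3 was the lowest array for 35 of the 58. Its low values did not carry the pattern alone. Without both arrays numbered 3, all 59 bright members were below 0, 35 of them lower at p under 0.05, and over all 88 members 77 were below 0 (50.8% of all probe sets), with a median of −0.11. Of the 88, 37 were lower (7.54% of all probe sets), 1 was higher (2.1%) and 0 reached 0.001 (0.082%). These shares of all probe sets are not matched for brightness. The median of members minus neighbours of like brightness was −0.011 in this fit. After cyclic loess the same 58 had medians of −0.03, 0.03 and −0.002 in OVX + E2, against 0.00, 0.02 and −0.02 in OVX, and the groups overlapped. The 16 core probe sets had a median of −0.01 on OVX replicate 3 as deposited and −0.07 after cyclic loess, where that array, the one low in slow-fibre genes, was the lowest for 8 of 16.

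The promoters of the members were searched for sites of factors known to act on mitochondrial genes, in the window of 250 bases before to 50 after the transcription start given by RefSeq (GRCm38.p6). Of the 44 genes 39 were matched, with 41 windows, and both strands were read. The short NRF1 site TGCGCA was found in 10 genes (7.76% of all 32851 windows held it) and the full NRF1 palindrome, which can overlap the short site, in 2 genes, Ndufaf4 and Ndufaf5 (0.971%). The ETS site CCGGAAG, bound by the GABP factor among others, was in 6 genes (8.86%), and the YY1 site AAGATGGC was in 7 (2.75%), in each case after the start. The full palindromic estrogen response element was in 0 member windows (0.07% of all windows) and the estrogen-related receptor site TCAAGGTCA in 0 (0.423%). A match is a stretch of letters and not a measured site.

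Shown 5′ to 3′ are the 250 bases before the start of 4 members that hold such letters, for the accessory, core and assembly genes with the smallest p among matches upstream of the start and for the gene with the full NRF1 palindrome, with the matched letters in capitals. Ndufs5 (chr4:123718187-123718436, minus strand) holds the short NRF1 site 99 bases before the start. Ndufs3 (chr2:90904722-90904971, minus strand) and Ndufaf8 (chr11:120098684-120098933, plus strand) hold the ETS site 27 and 8 bases before it. Ndufaf4 (chr4:24897833-24898082, plus strand) holds the full NRF1 palindrome 113 bases before the start, overlapped by the short site from 114.
Ndufs5: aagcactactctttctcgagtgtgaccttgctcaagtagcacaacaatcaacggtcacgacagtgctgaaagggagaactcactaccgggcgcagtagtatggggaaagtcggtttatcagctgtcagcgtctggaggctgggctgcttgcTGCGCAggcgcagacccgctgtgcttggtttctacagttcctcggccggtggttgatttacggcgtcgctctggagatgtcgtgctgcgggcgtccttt
Ndufs3: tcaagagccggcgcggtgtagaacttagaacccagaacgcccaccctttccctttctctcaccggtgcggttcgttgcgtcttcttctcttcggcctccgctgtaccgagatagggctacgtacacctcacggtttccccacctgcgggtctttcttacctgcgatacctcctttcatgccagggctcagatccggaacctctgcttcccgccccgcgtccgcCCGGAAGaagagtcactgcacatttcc
Ndufaf8: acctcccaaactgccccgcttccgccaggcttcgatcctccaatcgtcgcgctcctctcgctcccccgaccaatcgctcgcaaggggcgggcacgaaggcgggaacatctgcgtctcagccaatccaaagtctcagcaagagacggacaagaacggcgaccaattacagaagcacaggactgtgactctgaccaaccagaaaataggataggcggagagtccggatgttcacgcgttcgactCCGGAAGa
Ndufaf4: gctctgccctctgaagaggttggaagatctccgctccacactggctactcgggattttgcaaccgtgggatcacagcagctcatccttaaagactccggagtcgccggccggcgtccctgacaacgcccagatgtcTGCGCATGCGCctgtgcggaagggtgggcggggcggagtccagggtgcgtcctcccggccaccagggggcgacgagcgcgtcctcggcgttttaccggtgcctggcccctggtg
Of these 4 genes, Ndufs5, Ndufs3 and Ndufaf8 had called probe sets, and the Ndufaf4 probe sets had differences of −0.11 and 0.02.

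The rest of the respiratory chain was measured with 1 probe set per gene, that of widest interquartile range. The lists were chosen from the known composition of each complex. Complex II, succinate dehydrogenase, had 4 of 4 genes below 0 (median −0.14, 1 called lower). Complex III, which passes electrons to cytochrome c, had 9 of 9 below 0, with a median of −0.15 and 8 called lower, among them Uqcrc1 with −0.36 (adjusted p = 0.31). Complex IV had 11 of 12 below 0 (median −0.12, 4 called), and complex V, the ATP synthase, 15 of 15 (median −0.12, 5 called). At like brightness 39.6%, 39.4%, 36.0% and 39.4% of probe sets were called lower, in the order of complexes II to V, and after cyclic loess 0 genes were called lower in each of the 4. None of these 40 genes was higher at p under 0.05, and relative to probe sets of like brightness the 4 medians lay between −0.01 and 0.02. Complex I, with the same choice of probe set, had a median of −0.17 for its 6 core and −0.15 for its 28 accessory genes. Relative to like brightness these were −0.03 and −0.02. Over all 16 core and 60 accessory probe sets the medians were −0.12 and −0.11, so the choice moved them. The difference from the other complexes was not tested. The 1 measured complex I gene of mitochondrial DNA, ND5, had −0.11 (adjusted p = 0.412). Of 10 regulators of mitochondrial genes 6 were below 0 and 1 was called lower, against 25.7% of probe sets of like brightness. That 1 was Gabpb1, a subunit of GABP (−0.09, adjusted p = 0.357), read with a dim probe set. After cyclic loess Gabpb1 had −0.12 and was called, as were 4.02% of all probe sets.

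Assembly factors of complex I that do not carry the Nduf name were measured too, with the same choice of probe set. Their difference from the Ndufaf genes was not tested. All 10 measured were below 0, 4 were called lower, against 19.7% of probe sets of like brightness, and the median was −0.11, which is 0.07 below the neighbours. Ecsit, which works with Ndufaf1 on the membrane arm, had 9.55, 9.45 and 9.30 in OVX + E2, against 9.70, 9.75 and 9.83 in OVX (−0.33, adjusted p = 0.308), without overlap. Acad9, its partner in that step, had 7.53, 7.56 and 7.46 in OVX + E2, against 7.74, 7.59 and 7.86 in OVX (−0.22, adjusted p = 0.32). Both remained lower after cyclic loess, with −0.18 each and both called, as were 4.02% of all probe sets. The others called, Dmac1 (−0.15) and Dmac2 (−0.16), were not called after cyclic loess, with 0.00096 and −0.09.

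Markers of other cells in muscle were set beside these values, counted with the probe set of widest interquartile range of each gene. Of 6 fibroblast genes all were below 0 (median −0.29) and 2, Dcn and Pdgfra, were lower at p under 0.05. Of 10 slow-fibre genes 5 were below 0 and 0 called, and of 10 fast-fibre genes 10 were below 0 and 1, Tnnc2, was called. At like brightness 33.1%, 37.1% and 36.3% of probe sets were called lower, for fibroblast, slow-fibre and fast-fibre genes. Mean levels were taken with the brightest probe set of each gene instead. For fibroblast genes they were 9.18 to 9.46 in OVX + E2 and 9.34 to 9.78 in OVX. For fast-fibre genes they were 11.45 to 13.19 in OVX + E2 and 13.02 to 13.63 in OVX. Endothelial, macrophage, erythroid, Schwann cell and adipocyte markers had 0 called, where from 7.5% (erythroid) to 27.8% (Schwann cell) of probe sets of like brightness were called lower. In whole muscle, fewer fibres of a kind and less RNA per fibre cannot be told apart, and the part of these markers in the complex I values was not tested.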

How the data were processed

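The authors used R 2.14.2 for background correction, variance stabilization and normalization, and median polish over the probes of a set. What they deposited are log2 values, whose unit is arbitrary. All steps started from these deposited log2 values of 6 arrays, grouped by treatment. This scale compresses differences of dim probe sets. Arrays have no read depth, and their number limits the precision. Unused columns of values numbered 0.

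A linear model with empirical Bayes variances (limma 3.58.1, R 4.3.3) was fitted to each probe set, with OVX + E2 minus OVX as its two-sided contrast and without covariates, with Benjamini-Hochberg adjustment over all 45101. Called means an unadjusted p under 0.05, looser than the study's 0.001. Like brightness means the 1000 nearest probe sets in mean value. The fit was tested on simulated data with independent noise and no trend with brightness. The differences put in were far larger than those of complex I, so smaller ones were not covered. Figures were drawn with matplotlib 3.10.9.

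The members, lists and motifs were chosen with earlier results of these data known. Per-array values are given for the member of smallest p in each core gene and for the 6 accessory and 4 assembly genes of smallest p, and Ndufa3 was added after its values were seen. Probe sets with several symbols were left out. The closing section gives 14 alternative fits, other numbers of neighbours and other choices of probe set per gene.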

Additional observations from a re-analysis of the deposited data

How the results depend on the processing

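No member passed the unadjusted p of 0.001 in any of the 14 alternative fits. The count of members lower at p under 0.05 was 35 and became 1 under cyclic loess and 1 under quantile normalization, and ran from 24 to 37 when each array was left out in turn. The count of members higher was 0 and became 1 after quantile normalization (Ndufs8), 1 with the replicate block (Ndufab1, 0.15) and 1 without both arrays numbered 3 (Ndufab1, 0.18), and it ran from 0 to 1 with each array left out. The same replicate block gave 30 lower, and it is given only here because arrays of the same number did not deviate together (correlations of −0.13, −0.20 and −0.34), so the numbers were not taken as pairs.

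The core median of −0.12 became 0.049 after quantile normalization, 0.029 after cyclic loess and −0.17 with 1 probe set per gene of largest interquartile range, and ran from −0.13 to −0.08 with each array left out. The accessory median of −0.11 became 0.00052 after quantile normalization, −0.015 after cyclic loess and −0.15 with 1 probe set per gene of either kind, and ran from −0.14 to −0.090. The assembly median of −0.12 became 0.019 after quantile normalization, −0.0084 after cyclic loess and −0.055 without both arrays numbered 3, and ran from −0.16 to −0.08. The median of members minus like brightness, −0.002, ran from −0.015 to 0.010.

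Among the named probe sets, the sign turned after quantile normalization for Ndufs1 (0.023), Ndufs8 (0.056), Ndufaf8 (0.012) and Ndufaf4 (0.040), and after cyclic loess for Ndufs8 (0.041) and Ndufaf4 (0.013). Ndufv1 was also not called without OVX + E2 replicate 1 (−0.20) or OVX replicate 1 (−0.19), with the replicate block or without both arrays numbered 3 (−0.09), nor was Ndufv2 without both (−0.09). Ndufaf8 was not called with an intensity trend of the variance. Why the calls are lost under both normalizations was not tested beyond their construction, which removes differences tied to brightness.

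At the highest brightness few probe sets exist, so the 1000 neighbours span a wide window there, and with 3 arrays in each group the median standard error of a member, 0.052, is not small beside its difference.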
